A study of Mus musculus with 316 samples.

Results

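The engrafted bone marrow haematopoietic stem cells, abbreviated Eng_BM-HSC in the sample names, made up 95 of the 316 mouse cells of a single-cell RNA sequencing series. The cells were taken by the start of their names, and no measured value entered the choice. The labels describe them as haematopoietic stem cells (HSC) that derive from bone marrow and had engrafted. Host, donor strain, age, sex, conditioning, time after transplantation and sorting gate are not stated in the labels. The background was 94 HSC of the fetal liver (FL_HSC), 49 HSC-like cells that had been differentiated from embryonic stem cells and then engrafted (Eng_ES-HSC), and 78 embryonic stem cells (ESC). The descriptions give 1 library name for each group and no animal, so each group counts as 1 sample, and library and group cannot be told apart. No test was therefore made between groups, and all values below describe these cells.

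HSC sit at the top of blood formation. They renew themselves, give rise to every blood lineage, and after transplantation home to the marrow and rebuild the blood of the host. In adult marrow most of them divide rarely and keep low activity of the genes of DNA replication, and they are held in this state by a small network of transcription factors and by signals received through surface receptors such as Kit. Bone marrow HSC are commonly isolated by surface proteins that are absent from, or lower on, their more mature descendants.

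A gene was called detected in a cell at 1 or more TPM (transcripts scaled to a fixed total per cell and corrected for length), and levels are given in TPM or as log2(TPM + 1). Of the 95 Eng_BM-HSC cells, 76 had at least 1000 detected genes and were kept, and 19 were left out. The kept cells had 1008 to 3602 detected genes with a median of 2585, while those left out had 317 to 988 with a median of 697. Mitochondrial genes held a median of 13.4% of the TPM of kept cells (lowest 0.382%, highest 95.2%), and 10 of the 76 were above 50%. In 9 of the 76, 1 gene outside the mitochondrial genome held over 10% of the TPM, led by Ifi44 with 41% of cell 89. The other groups kept 87 FL_HSC, 21 Eng_ES-HSC and 77 ESC cells. All 95 Eng_BM-HSC profiles were distinct, with a highest Pearson correlation of 0.690 between any pair.

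The 5 genes given as markers of this group were each detected in over 50% of Eng_BM-HSC cells. On GRCm38 with GENCODE M21 annotation, Hlf lies at chr11:90336536-90390895 (minus strand), Adgrg1 at chr8:94974751-95014217 (plus), Ctla2b at chr13:60895350-60897447 (minus) and H2-Aa at chr17:34282744-34287823 (minus). Hlf, a transcription factor of the PAR bZIP family that is a textbook mark of HSC, was detected in 67.1% of Eng_BM-HSC cells (95% exact binomial interval 55.4 to 77.5%), with a median of 9.88 and a highest value of 2374 TPM. In the other groups Hlf was detected in 69% of FL_HSC, 9.52% of Eng_ES-HSC and 5.19% of ESC cells, and the Eng_BM-HSC and FL_HSC medians were 9.88 and 7.62 TPM. Intervals cover counting error only.

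Adgrg1 encodes the adhesion receptor GPR56. It was detected in 96.1% of Eng_BM-HSC cells, with a median of 193 and a highest value of 1828 TPM, against 95.4% of FL_HSC, 19% of Eng_ES-HSC and 10.4% of ESC cells. Ctla2b encodes a small protein that resembles the inhibitory propeptide of cathepsins. Its TPM ran from 0 through a median of 71.9 to 7836 in Eng_BM-HSC, and it was detected in 85.5% of these cells, against 64.4% of FL_HSC and 9.52% of Eng_ES-HSC cells and no ESC cell. The highest FL_HSC value of Ctla2b was 727 TPM, and the upper quartile of Eng_BM-HSC was 667 TPM.

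H2-Aa encodes the alpha chain of a major histocompatibility complex (MHC) class II molecule. It split the Eng_BM-HSC cells, with detection in 41 of 76 (53.9%, interval 42.1 to 65.5%) and a highest value of 4307 TPM. It was found in 0 of 87 FL_HSC cells, which allows a share of cells with the transcript detected of up to 3.45% (3 cells of 87, the limit taken for a count of 0), in 1 of 21 Eng_ES-HSC cells, at 11146 TPM, and in 0 of 77 ESC cells. Egr1, an immediate early zinc finger factor, was detected in 88.2% of Eng_BM-HSC cells with a median of 27.2 and a highest value of 6190 TPM, against 56.3% of FL_HSC, 23.8% of Eng_ES-HSC and 11.7% of ESC cells. For each of the 5 markers the groups overlapped at 0 TPM. The 10 marker pairs had rank correlations over the 76 cells, adjusted for gene number, of -0.06 to 0.26 with a median of 0.02.

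**Figure D1:**
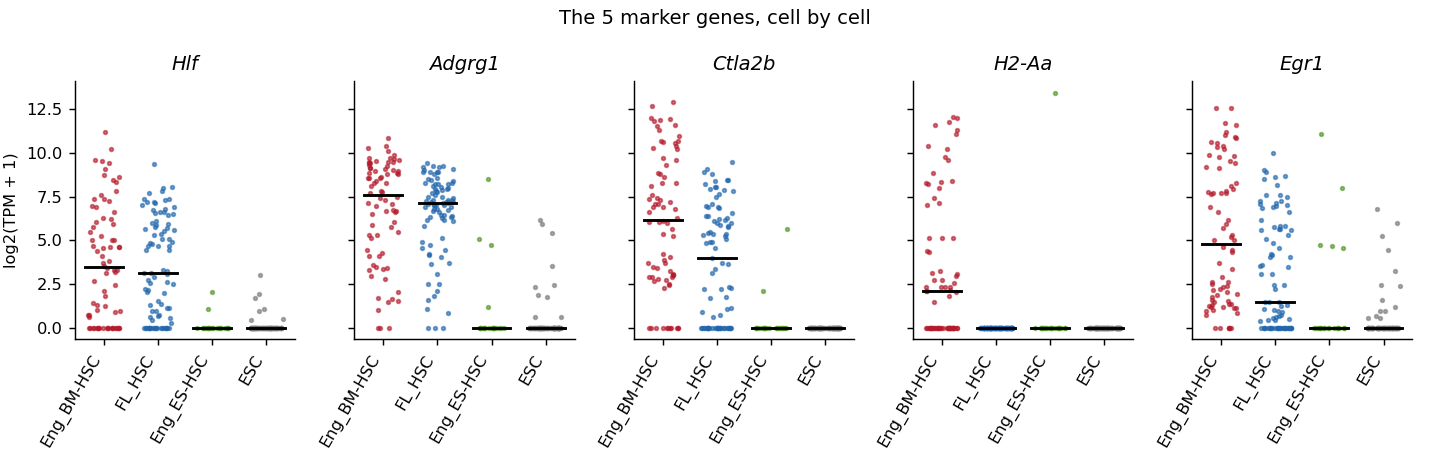
Each point is 1 kept cell, with log2(TPM + 1) on the vertical axis, and black bars are medians (76 Eng_BM-HSC, 87 FL_HSC, 21 Eng_ES-HSC and 77 ESC cells). The medians of Hlf and Adgrg1 lay close together in Eng_BM-HSC and FL_HSC, the highest Eng_BM-HSC cell lay above the highest FL_HSC cell for each of the 5 genes, and H2-Aa was at 0 in every FL_HSC and ESC cell.

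The transcription factors of the stem cell network were present in part. Of 25 listed HSC factors, 11 were detected in at least 50% of the Eng_BM-HSC cells. Over all 21970 gene rows, 1290 were (5.87%), which is 13.4% of the 9603 genes with a mean of at least 1 TPM. Lmo2, a bridging subunit of the SCL complex, led with 89.5% of cells and a median of 148 TPM, followed by the ETS factor Fli1 with 86.8% and 206 TPM. Myb was detected in 77.6% of cells, Etv6 in 76.3%, the corepressor Cbfa2t3 in 71.1%, and Gata2 and Nfe2 in 63.2% each. Lyl1 and Hhex were in 51.3% each and Runx1 in 50%.

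Other members of the network were seen in fewer cells. Erg was detected in 39.5%, Meis1 in 36.8%, Tal1 in 32.9% and Mecom, the gene of the EVI1 factor, in 26.3% of Eng_BM-HSC cells. Mecom was found in 72.4% of FL_HSC cells and Meis1 in 63.2%. Hoxb5 and Prdm16, factors known from long-term repopulating HSC, were each found in 1 of 76 Eng_BM-HSC cells. FL_HSC cells had 12.6% with Hoxb5 and 2.30% with Prdm16. All 76 Eng_BM-HSC cells held at least 3 of the 25 factors, and their summed level ran from 47.6 through a median of 2503 to 29621 TPM.

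Surface genes of HSC were also present in part, with 11 of 26 in at least 50% of the cells. Cd47, the signal that keeps macrophages from engulfing a cell, was in 97.4%, Ly6e in 86.8% and the niche ligand Angpt1 in 85.5% of Eng_BM-HSC cells. The stem cell factor receptor Kit was in 64.5% and Ly6a, which encodes Sca-1, in 59.2%. Kit and Ly6a, the pair that defines the classic mouse stem and progenitor gate together with the absence of lineage markers, were both detected in 28 of 76 cells and neither in 10.

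Genes of surface proteins that are used to refine the HSC gate were detected in fewer cells. Slamf1, which encodes CD150, was in 6.58% of Eng_BM-HSC cells (interval 2.17 to 14.7%), Tek, the angiopoietin receptor, in 5.26%, and Procr, which encodes EPCR, in 15.8%. The shares in FL_HSC were 42.5% for Slamf1, 47.1% for Tek and 32.2% for Procr. Gene number per cell was also lower in Eng_BM-HSC, with a median of 2407 over all its cells, kept or left out, against 4151 in FL_HSC. The shares are over kept cells only, and the part of gene number in them was not tested.

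Genes of receptors that multipotent progenitors carry were detected in more cells. Flt3, the receptor of FLT3 ligand, was in 76.3% of Eng_BM-HSC cells with a median of 4.22 TPM, and Cd34 was in 68.4% with a median of 10.1 TPM. Both were detected in 38 of 76 cells and neither in 4. Cd48, the SLAM family gene of more mature progenitors, was in 14 cells, 13 of which also had Flt3. Flt3 and Hlf were both detected in 43 cells and had a rank correlation of 0.34. The shares in FL_HSC were higher for all 3 genes, with 78.2% for Flt3, 92% for Cd34 and 55.2% for Cd48. FL_HSC medians were 15.5 TPM for Flt3 and 117 TPM for Cd34. Flt3 was detected in 96.1% of ESC cells too, with a median of 8.41 TPM. Set against the label, Hlf, Adgrg1, Lmo2, Fli1 and Kit were present in most cells, and the HSC markers Slamf1, Tek and Procr were absent from most.

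Of all 21970 gene rows, 9449 (43%) were in no Eng_BM-HSC cell, and the lists of mature lineages lay on both sides of that share. Of 14 measured erythroid genes none was in 50% of the Eng_BM-HSC cells and 7 were in no cell, Klf1 among them, and the median summed level was 0 TPM. Of 14 B cell genes 11 were in no cell, including Cd79a and Pax5. Of 18 T and natural killer cell genes 10 were in no cell, including Cd3e, and of 10 mast cell and basophil genes 9 were in no cell. Each such zero, 0 of 76 cells, allows a share of cells with the transcript detected of up to 3.95% (3 cells of 76). The granulocyte list had 8 of 16 genes in no cell, Elane and Ctsg among them, and 4 cells held 3 or more of its members. The megakaryocyte list had 6 of 20 genes in no cell and the monocyte and macrophage list 5 of 18, both below the share of all rows.

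Single members of those lists were widespread. Csf3r, the receptor of granulocyte colony-stimulating factor, was in 64.5% of cells, Lyz2, the lysozyme of myeloid cells, in 56.6%, and Nkg7, a cytotoxic granule gene, in 55.3%. Ebf1, a B cell factor, was in 64.5% but with a median of only 1.74 TPM, and it was in 92.2% of ESC cells. Nanog, a pluripotency factor, was in 60.5% with a highest value of 46.4 TPM, while 10 of the 12 pluripotency genes were in no cell, Pou5f1 and Sox2 among them. Of 20 megakaryocyte genes 2 were in at least 50% of the cells. That count lies between the shares of all rows (5.87%) and of genes with a mean of at least 1 TPM (13.4%). Vwf was in 1 cell, and Gata1 was in none.

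**Figure D2:**
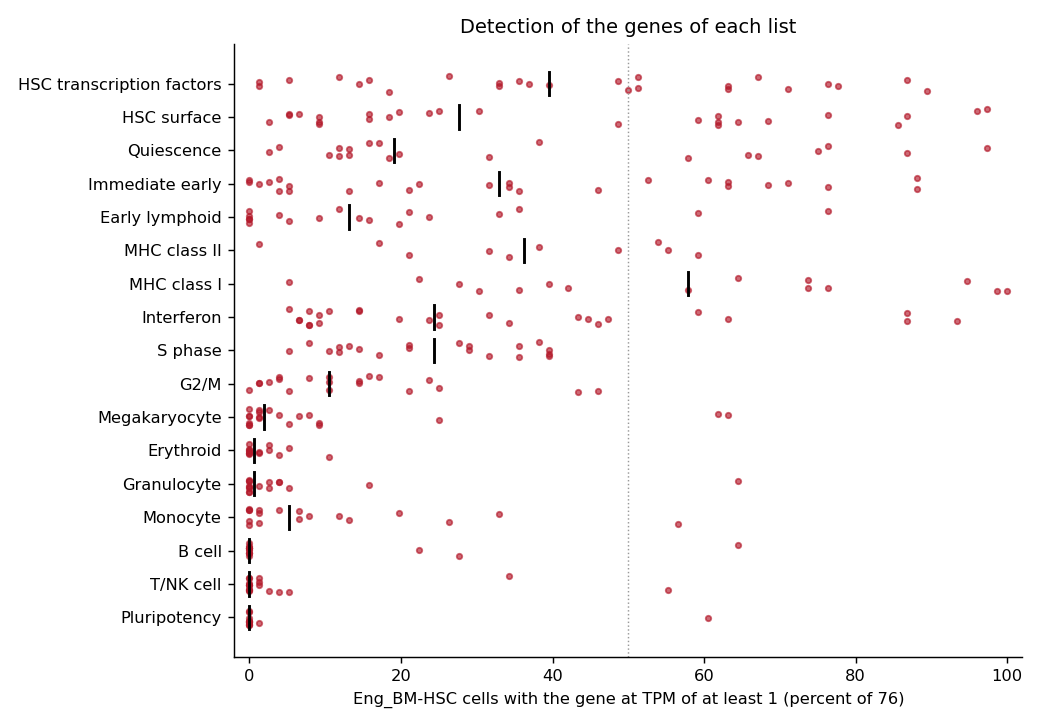
Each point is 1 gene, placed by the percent of the 76 Eng_BM-HSC cells in which it was detected, with lists from top to bottom, and black bars are list medians. The median was 39.5% for HSC transcription factors and 27.6% for HSC surface genes, and it was 0.658% for the erythroid and the granulocyte list and 0 for the B cell, T and natural killer cell, and pluripotency lists.

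Replication and division genes were each detected in a minority of the Eng_BM-HSC cells, as were most gene rows. None of the 20 listed S phase genes and none of the 20 G2 and M phase genes was in at least 50% of these cells, against 5.87% of all rows. At that share a list of 20 genes can hold none, so the zero counts do not set these lists apart. In at least 20% of cells were 12 of the S phase and 5 of the G2 and M phase genes, both larger shares than the 18.5% of all rows. A cell held a median of 4 of the S phase genes (lowest 0, highest 16) and a median of 2 of the G2 and M phase genes (lowest 0, highest 17), and 12 of 76 cells held 5 or more G2 and M phase genes. Mki67, the Ki-67 proliferation antigen, was in 14.5% of Eng_BM-HSC cells, against 62.1% of FL_HSC, 47.6% of Eng_ES-HSC and 68.8% of ESC cells. Top2a, the topoisomerase of dividing cells, was in 15.8% of Eng_BM-HSC cells, against 81.6% of FL_HSC, 28.6% of Eng_ES-HSC and 93.5% of ESC cells, and Mki67 and Top2a were found together in 6 Eng_BM-HSC cells. The median gene number over all cells of a group, kept or left out, was 2407 in Eng_BM-HSC, 4151 in FL_HSC, 973 in Eng_ES-HSC and 5425 in ESC. The shares are over kept cells only, each with at least 1000 genes, and the median of the kept Eng_BM-HSC cells was 2585. The part of gene number in these shares was not tested. With the 58 Eng_BM-HSC cells of at least 2000 genes, 2 of the G2 and M phase genes were in at least 50%.

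Of 20 genes linked to quiescence, 7 were in at least 50% of the cells, against 5.87% of all rows and 13.4% of genes with a mean of at least 1 TPM. They included Btg1, an antiproliferative factor, in 86.8%, the forkhead factor Foxo3 in 75%, and the CDK inhibitor Cdkn1b, which encodes p27, in 67.1%. Cdkn1c, which encodes the p57 inhibitor of dormant HSC, was in 11.8%, against 59.8% of FL_HSC cells. Ccnd2 was the cyclin D found most widely, in 76.3% of cells, with Ccnd3 in 18.4% and Ccnd1 in 13.2%.

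Some immediate early genes, led by Fos and Egr1, were high in Eng_BM-HSC, others were lower there than in FL_HSC, and several varied together. These genes encode transcription factors and feedback regulators that are transcribed within minutes of a stimulus and without new protein synthesis. Of 26 listed, 9 were in at least 50% of the cells, against 5.87% of all rows and 13.4% of genes with a mean of at least 1 TPM. Fos lies at chr12:85473890-85477273 on the plus strand. Fos, a subunit of AP-1, ran from 0 through a median of 78.6 to 10200 TPM in Eng_BM-HSC and was detected in 88.2% of cells. The medians of Fos were 2.40 TPM in FL_HSC, 0.695 TPM in Eng_ES-HSC and 0 in ESC, and the highest values were 1859 TPM in FL_HSC, 2182 TPM in Eng_ES-HSC and 494 TPM in ESC. The groups overlapped at the low end, and no other group reached the highest Eng_BM-HSC values.

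Dusp1 and Jun had lower medians in Eng_BM-HSC than in FL_HSC. Dusp1, a phosphatase that switches off MAP kinases, had a median of 23.3 and a highest value of 4627 TPM in Eng_BM-HSC, and its median was 69.5 TPM in FL_HSC. Jun, the main AP-1 partner of Fos, had a median of 20.6 TPM in Eng_BM-HSC and 77.3 TPM in FL_HSC. Zfp36, which encodes the mRNA decay factor tristetraprolin, was in 63.2% of Eng_BM-HSC cells. Of the 26 genes, Fos, Egr1, Myc and Fosb led each other group by at least 1 log2 unit, a lead that 0.363% of 13239 genes had in Eng_BM-HSC. Klf6 had a median of 5.01 TPM in Eng_BM-HSC against 245 TPM in FL_HSC. Nr4a1 was in 17.1% of Eng_BM-HSC cells against 40.2% of FL_HSC cells, and Btg2 in 31.6% against 58.6%. Ier3 was in 21.1% against 47.1% and Atf3 in 3.95% against 33.3%. Cyr61 and Egr3 were in no Eng_BM-HSC cell.

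The immediate early genes also varied together from cell to cell. Over the 76 cells, and after adjustment for gene number, Fos and Jun had a rank correlation of 0.61, Fos and Dusp1 of 0.58, Fos and Egr1 of 0.56 and Fos and Zfp36 of 0.56. Among 120 pairs of the 16 list members that were detected in at least 20% of cells, 26 (21.7%) reached 0.3, against 1% of all 8219485 gene pairs, and the median was 0.15, against 0.01 over all pairs. The points share the library and the TPM scale, which makes genes of 1 cell depend on each other. All 5 of Fos, Jun, Egr1, Dusp1 and Zfp36 were detected in 33 of 76 cells, and 1 cell had none.

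In the other groups the pair of Fos and Jun had correlations of 0.19 in FL_HSC, 0.29 in Eng_ES-HSC and 0.26 in ESC. For Jun and Dusp1 the value was 0.44 in Eng_BM-HSC and 0.52 in FL_HSC, and for Fos and Fosb it was 0.43 in Eng_BM-HSC against 0.67 in Eng_ES-HSC. Of the 91 list pairs with a value in both groups, 45 were higher in FL_HSC than in Eng_BM-HSC, and the medians were 0.14 in each. Of 105 pairs with a value in Eng_ES-HSC, 56 were higher there, with a median of 0.16 in Eng_BM-HSC against 0.24 in Eng_ES-HSC. No test of these differences was made. The mean level of the 5 genes had a rank correlation of 0.45 with the number of detected genes and of -0.30 with the mitochondrial percent. The 33 cells with all 5 genes had a median of 2698 detected genes and 12.5% mitochondrial TPM, against 2269 and 14.1% in the 43 cells with fewer. The part of RNA quality in the adjusted correlations was not tested. Fos and Jun had a correlation of 0.47 to 0.68 over the 7 alternative settings tried.

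**Figure D3:**
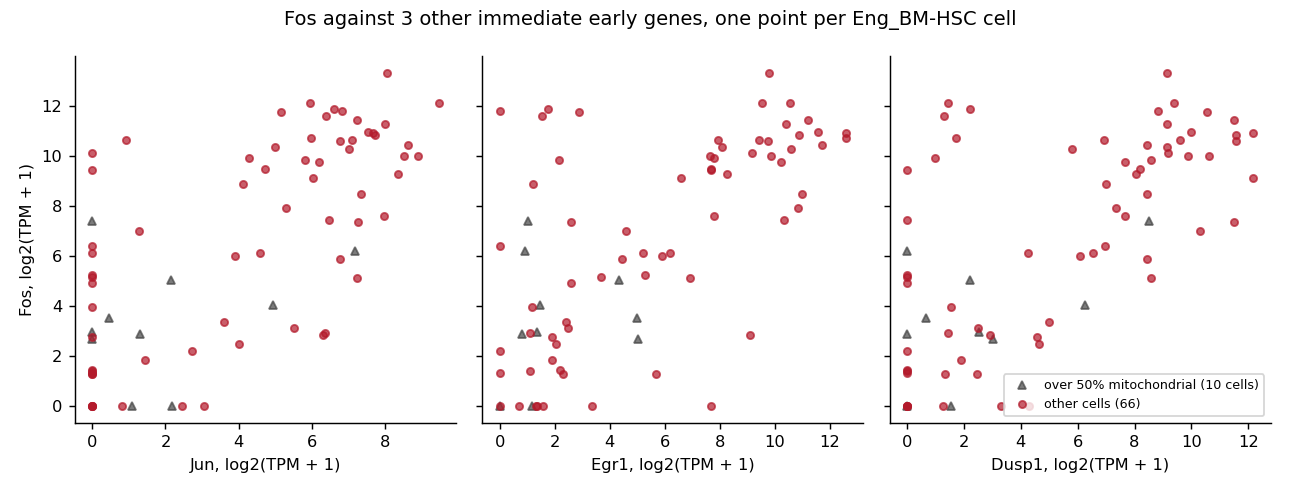
Fos on the vertical axis against Jun, Egr1 and Dusp1 on the horizontal axes, all as log2(TPM + 1), with 1 point per Eng_BM-HSC cell and triangles for the 10 cells over 50% mitochondrial. Cells with high Fos were mostly high in the other gene, with rank correlations of 0.61 for Jun, 0.56 for Egr1 and 0.58 for Dusp1.

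The 250 bases before the annotated start of 4 of these genes are shown because the genes varied together. They come from RefSeq on build GRCm38.p6, at chr12:85473640-85473889 (plus strand) for Fos, chr4:95052223-95052472 (minus) for Jun, chr17:26508473-26508722 (minus) for Dusp1 and chr7:28379229-28379478 (minus) for Zfp36. Capitals mark matches on either strand to TGACG, the core of a cyclic AMP response element, or to the CArG box, the core bound by serum response factor.
Fos: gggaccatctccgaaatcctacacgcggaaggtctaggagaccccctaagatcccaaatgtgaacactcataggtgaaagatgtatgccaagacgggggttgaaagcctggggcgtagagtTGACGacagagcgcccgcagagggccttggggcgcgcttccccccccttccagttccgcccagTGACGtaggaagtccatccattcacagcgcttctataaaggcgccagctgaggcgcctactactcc
Jun: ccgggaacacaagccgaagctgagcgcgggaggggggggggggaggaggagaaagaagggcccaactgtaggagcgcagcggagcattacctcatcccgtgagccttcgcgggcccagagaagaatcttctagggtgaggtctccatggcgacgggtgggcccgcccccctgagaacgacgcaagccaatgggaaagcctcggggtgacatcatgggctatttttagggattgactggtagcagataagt
Dusp1: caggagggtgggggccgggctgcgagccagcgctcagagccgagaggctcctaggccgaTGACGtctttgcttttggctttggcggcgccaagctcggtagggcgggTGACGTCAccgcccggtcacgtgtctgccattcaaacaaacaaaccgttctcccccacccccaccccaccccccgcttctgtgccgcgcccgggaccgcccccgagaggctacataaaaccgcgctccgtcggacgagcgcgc
Zfp36: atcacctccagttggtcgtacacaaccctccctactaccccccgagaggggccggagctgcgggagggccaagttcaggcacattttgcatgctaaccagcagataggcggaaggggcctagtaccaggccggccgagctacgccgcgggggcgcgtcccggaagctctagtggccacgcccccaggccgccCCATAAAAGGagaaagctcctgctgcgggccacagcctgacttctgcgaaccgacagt
TGACG was found at 2 places before Fos, the nearest 66 bases before the start. Before Dusp1 it was found at 3 places, of which 2 overlap in a palindrome that matches on both strands. A CArG box lay 58 bases before Zfp36, and neither motif was found before Jun. Of 32851 promoter windows of the same length, 17.8% held TGACG and 1.47% a CArG box. The matches describe the letters only.

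Genes of MHC class II, the molecules that present peptides to helper T cells, were found in part of the Eng_BM-HSC cells. Of 10 listed, H2-DMa, H2-Aa and H2-DMb2 were in at least 50% of the cells, against 5.87% of all rows. That count of 3 fell to 0 over all 95 cells. Cd74, the invariant chain, was in 48.7% of the kept cells. Cd74 was in none of the FL_HSC, 4.76% of Eng_ES-HSC and 3.90% of ESC cells. H2-DMa, a chain of the peptide editor, was in 59.2% of Eng_BM-HSC cells, against 25.3% of FL_HSC, 9.52% of Eng_ES-HSC and 3.90% of ESC cells. H2-Aa, H2-Ab1, H2-DMa, H2-Oa and Cd74 led each other group by at least 1 log2 unit, and H2-DMb2, which was in 77.9% of ESC cells, did not. Ciita, the class II transactivator, was detected in 1 Eng_BM-HSC cell.

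The median pair correlation of the class II genes was -0.0027, with 0.40 for H2-Aa and Cd74 and 0.30 for H2-Ab1 and H2-Eb1 the highest. H2-Aa and Cd74 were both detected in 23 cells, H2-Aa alone in 18, Cd74 alone in 14 and neither in 21. One cell set the mean of H2-Eb1, with 93976 TPM and 95.6% of the gene's summed TPM. Of other cells that carry class II, 11 of 14 B cell genes were in no cell, with Ebf1 in 64.5%, Cd22 in 27.6% and Cd79b in 22.4%. Ebf1 was also in 92.2% and Cd22 in 45.5% of ESC cells, and Cd79b was in 65.5% of FL_HSC cells. Of 8 dendritic cell genes 3 were in no cell, Itgax among them, against 43% of all gene rows. Xcr1 was in 28.9%, Cd8b1 in 22.4% and the other 3 in at most 3.95% of Eng_BM-HSC cells. In ESC cells Xcr1 was in 39% and Cd8b1 in 16.9%. The part of B cells and dendritic cells in the class II levels was not tested.

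Class I genes were detected more widely. B2m, the shared light chain, was in every Eng_BM-HSC cell with a lowest value of 25.4, a median of 7792 and a highest value of 24575 TPM. H2-K1 was in 98.7% and H2-D1 in 94.7% of cells, and 8 of 15 listed genes were in at least 50%. Of 26 interferon-induced genes, 5 were in at least 50% of the cells, against 5.87% of all rows and 13.4% of all genes with a mean of at least 1 TPM. Ifitm3, Ifitm2 and Ifitm1, membrane proteins that restrict viruses, were in 93.4%, 86.8% and 86.8% of Eng_BM-HSC cells, while Isg15 was in 23.7%, Irf7 in 6.58% and Mx1 in 5.26%. Ifi44, Iigp1 and Rtp4 led each other group, with 46.1%, 44.7% and 43.4% of cells, but 98.8% of the summed TPM of Ifi44 came from cell 89.

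The 2 neighbouring genes Ctla2a and Ctla2b both had their highest mean in Eng_BM-HSC, with mean leads of 1.79 and 2.32 log2 units over the next group. Ctla2a was in 97.4% of Eng_BM-HSC cells with a median of 493 and a highest value of 6871 TPM, against 88.5% of FL_HSC, 76.2% of Eng_ES-HSC and 53.2% of ESC cells. Both genes were detected in 64 of 76 cells, and their rank correlation was 0.59, against 0.37 in FL_HSC. Their transcripts share 26.3% of 31-base words, so reads of one could have been assigned to the other and the values of both are uncertain to that extent. The 250 bases before each gene are shown because they are near-copies, at chr13:60936626-60936875 for Ctla2a and chr13:60897448-60897697 for Ctla2b, both on the minus strand of GRCm38.p6 in RefSeq. Capitals mark bases that differ or lack a partner within the aligned stretch.
Ctla2a: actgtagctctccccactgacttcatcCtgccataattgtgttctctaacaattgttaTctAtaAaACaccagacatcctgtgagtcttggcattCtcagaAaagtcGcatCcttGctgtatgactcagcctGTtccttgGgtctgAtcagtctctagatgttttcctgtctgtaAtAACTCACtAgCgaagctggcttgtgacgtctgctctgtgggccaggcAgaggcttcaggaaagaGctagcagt
Ctla2b: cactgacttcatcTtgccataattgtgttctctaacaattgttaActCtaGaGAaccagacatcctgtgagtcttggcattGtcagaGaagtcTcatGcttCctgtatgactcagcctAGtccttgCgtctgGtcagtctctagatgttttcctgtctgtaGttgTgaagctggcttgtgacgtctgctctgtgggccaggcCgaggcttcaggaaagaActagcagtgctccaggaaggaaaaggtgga
The 236 aligned positions had the same base at 209, an identity of 88.6%.

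The genes shared by all cells were few. In Eng_BM-HSC 29 genes were detected in every kept cell, 10 of them mitochondrial and 6 ribosomal, and 115 in at least 90% of cells. Another 9449 rows were detected in no cell. Mitochondrial and ribosomal protein genes aside, the smallest cell-to-cell spreads among genes present in every cell belonged to Actb, the cytoplasmic actin, with 12.27 ± 1.90 log2(TPM + 1) (SD, 76 cells), to the translation factor Eef1a1 with 10.80 ± 2.16 and to B2m with 12.09 ± 2.20. Other genes of small spread, such as Bhlhe41 and Rorb, were higher in cells with few detected genes. Bhlhe41 had a rank correlation of -0.64 with gene number and Rorb of -0.58, in a tail of -0.5 or below that 0.469% of 4055 genes reached. At 0.5 or above were 5.72% of the genes, among them Cbx3 with 0.67.

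High mean levels often came from single cells. Of 5781 genes with a mean of at least 10 TPM, 1946 had over 50% of their summed TPM in 1 cell. Among the 15 named genes with the highest mean, Ifi44, Xpc, Tmem60, Ndufa3, Chchd2 and Ptprcap each had over 90% of their sum in 1 cell. Actb had 16.2% and B2m 4.06% of the sum in the top cell, so no single cell set their means.

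Spread beyond that of genes of like level was measured as an excess SD, the SD of log2(TPM + 1) minus the median SD in 1 of 20 bins of mean level. An excess of at least 0.5 was reached by 250 of 4055 genes (6.17%). Cox6a1, a subunit of cytochrome c oxidase, had the largest excess with 1.35 and a level of 6.38 ± 4.76 log2(TPM + 1), and it was detected in 55 of 76 cells. Sh3bgrl3 followed with 1.02 and Mif, a cytokine, with 0.95. Uqcrh and Uqcr11 of complex III, Ndufa4 and the proteasome genes Psmb6 and Psma1 had excesses of 0.88 to 0.95. With a pseudocount of 10, 6 of the 12 genes of largest excess no longer reached 0.5, among them Uqcrh, Uqcr11, Ndufa4 and Psma1. Cox6a1 had a rank correlation of 0.72 with gene number and Uqcrh of 0.55, and the part of gene number in their spread was not tested.

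The chemokine gene Ccl4 was detected in 23 of 76 cells and reached 4775 TPM, with an excess SD of 0.91 and a correlation with gene number of 0.048. Gstm1, a glutathione transferase, had an excess of 0.87, a detection of 71.1% and a highest value of 5548 TPM. Fos had an excess of 0.68 and H2-Aa of 0.55, while Hlf and Adgrg1 had -0.32 and -0.47, below the middle of genes of like level.

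**Figure D4:**
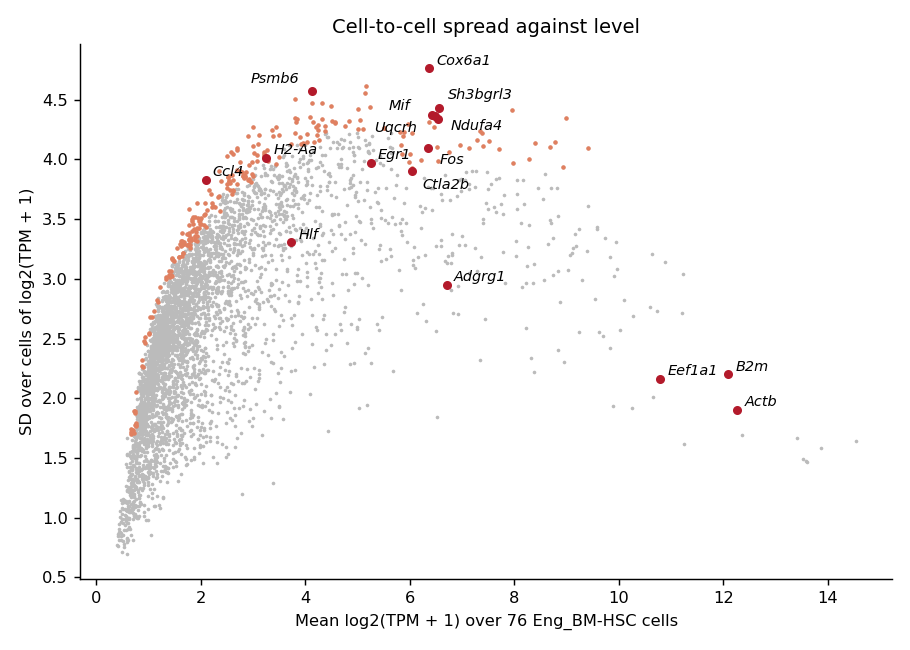
Each point is 1 of 4055 genes detected in at least 20% of the 76 Eng_BM-HSC cells, with mean log2(TPM + 1) on the horizontal and its SD over cells on the vertical axis. Orange points have an excess SD of at least 0.5 (250 genes) and red points are named genes. Cox6a1 lies highest at an SD of 4.76, and Hlf and Adgrg1 lie below most genes of their level.

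Across all genes, correlated pairs were rare. Of the 8219485 pairs, 908 (0.011%) had an adjusted rank correlation of at least 0.5 and 36 of -0.5 or below. Pairs within the mitochondrial and ribosomal protein genes made up 351 of the 908, and 289 held a predicted or otherwise skipped gene. The other 268 included 2 pairs of overlapping genes and 6 pairs with over 10% shared 31-base words. Ilk and Taf10, at 0.74, are such an overlapping pair, and Hist2h2aa1 with Hist2h2aa2, at 0.75, and Rnaset2a with Rnaset2b, at 0.74, share most of their sequence, and the values of such pairs are uncertain because reads could be shared.

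Among pairs with neither overlap nor like symbols, Mfsd11 and Nmnat1 were highest with 0.77, followed by Zfp488 and Olfr613 with 0.70, Bhlhe41 and Rorb with 0.68 and Prex2 and Eef1a1 with 0.66. Mfsd11 and Nmnat1 share 4.50% of 31-base words, Zfp488 and Olfr613 3.08%, and Prex2 and Eef1a1 1.87%. Reads could be shared in these pairs too, and its part in their values was not tested. Jun and Fos, whose proteins pair in the AP-1 factor and whose transcripts share 0% of these words, had 0.61. Ubb, which encodes ubiquitin, and Btg1 had 0.61. Mcm6, a subunit of the replicative helicase, and Uhrf1, which maintains DNA methylation at replication forks, had 0.50, the highest value among 66 S phase pairs, whose median was 0.15. The lowest pair was Npffr1 and Gpx1 with -0.59.

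The closest partners of the markers differed between markers. Those of Egr1 were Fos with 0.56, Jun with 0.47, Cdk11b with 0.46 and Zfp36 with 0.45. Those of Ctla2b were Ctla2a with 0.59 and Cdk11b with 0.48. Hlf had Zfp459 with 0.48 and Pde6h with 0.44, Adgrg1 had Gpbp1l1 with 0.45 and Ubb with 0.44, and H2-Aa had Phkg1 with 0.46 and Prdx5 with 0.44. No HSC transcription factor was among the 4 closest partners of Hlf, and the median over 153 pairs of HSC factors was 0.01.

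**Figure D5:**
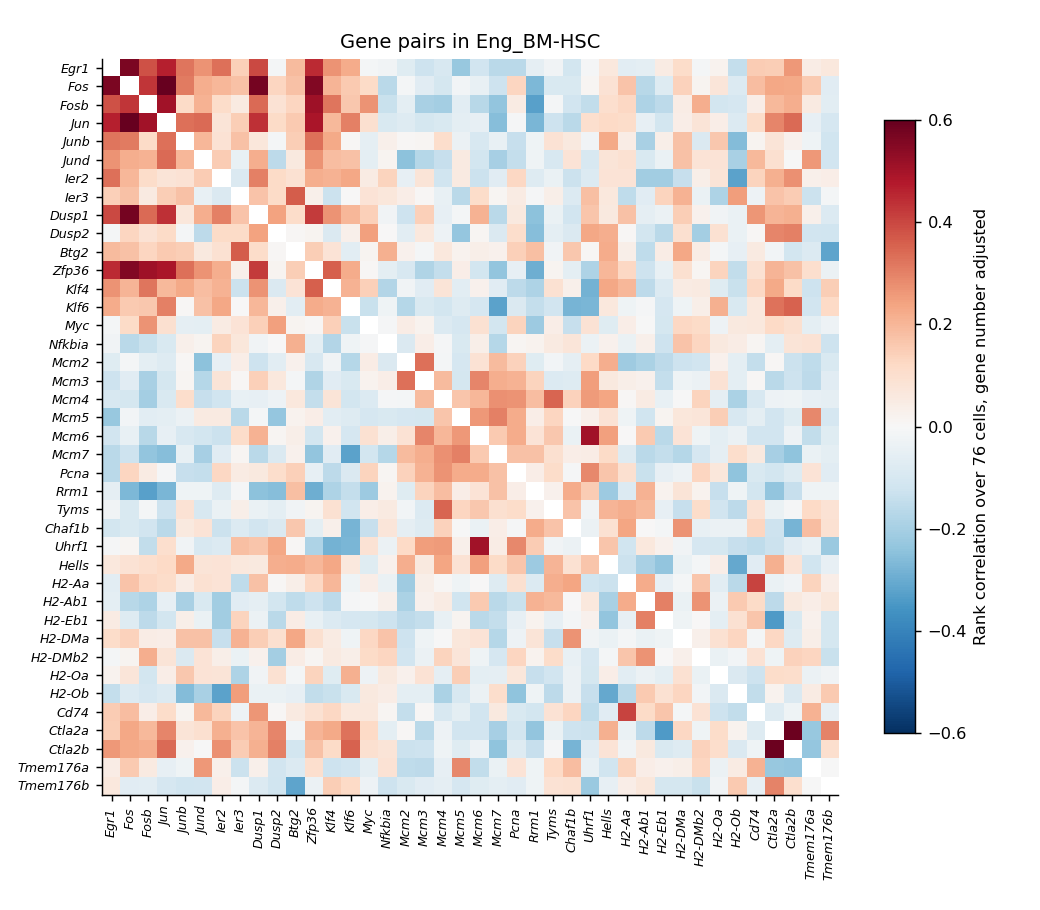
Rank correlation over the 76 Eng_BM-HSC cells, adjusted for gene number, for immediate early, S phase, MHC class II and Ctla2 or Tmem176 genes detected in at least 20% of cells. Red is positive and blue negative, and the diagonal is blank. A block from Egr1 to Zfp36 holds values up to 0.61, Mcm6 with Uhrf1 reaches 0.50, and the class II block is pale apart from H2-Aa with Cd74 at 0.40.

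Set against the other groups, 48 of 13239 genes (0.363%) had a mean log2(TPM + 1) in Eng_BM-HSC at least 1 above each of the other 3. Fos had the largest lead, 3.34, with 6.36 ± 4.10 in Eng_BM-HSC (SD over 76 cells) and means of 3.02 in FL_HSC, 2.84 in Eng_ES-HSC and 1.33 in ESC. A row given in capitals as PISD, for which no genome position was found, had a lead of 2.86, H2-DMa of 2.69, H2-Aa of 2.61, Ctla2b of 2.32 and Egr1 of 2.16. Tgtp2, a GTPase induced by interferon, had 2.13, H2-Q6 of class I had 2.04, the mucin gene Muc13 had 1.93, Ctla2a had 1.79, and the growth regulators Myc and Pim1 had 1.59 and 1.57. Arid1b had 2.09, with 57.7% of its summed TPM in 1 cell. Hlf had means of 3.73 in Eng_BM-HSC and 3.50 in FL_HSC, and Adgrg1 had 6.71 in Eng_BM-HSC and 6.45 in FL_HSC. The count of 48 depended on the cells compared, with 83 without the 10 Eng_BM-HSC cells over 50% mitochondrial and 515 with cells of 1000 to 3000 genes in every group (65 Eng_BM-HSC, 18 FL_HSC, 17 Eng_ES-HSC and 6 ESC cells), and the 15 genes of largest lead passed in both. With a pseudocount of 10 the count was 20, and Myc and Zbtb20 of those 15 did not pass. Over all cells it was 36, and Pim1 did not pass.

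Principal components of the 4055 genes, with gene number removed, were computed after the data had been seen and add 2 descriptive axes. The first component held 3.22% of the variance and had a correlation of -0.65 with the mitochondrial percent. On the second, with 2.84%, the 100 genes at one end (2.47% of all) held Hlf, Lmo2, Fli1, Myb, Kit, Ly6a and Btg1, and the 100 at the other end held 7 of 12 S phase genes, Mcm2, Mcm3, Mcm4, Mcm5, Mcm6, Rrm1 and Uhrf1. Directly, Hlf had rank correlations of -0.32 with Uhrf1 and -0.23 with Mcm6. On the third component, with 2.14%, one end held 8 of 16 immediate early genes together with Flt3, Cd34, Cd27, Dntt and Ctla2b, and the other held H2-Aa, Cd74, Ifitm1, Ly6a and Mllt3. Ly6a had rank correlations of -0.30 with Cd34 and 0.35 with Ifitm1. With cells of at least 2000 genes alone, cell scores of components 1 and 2 were both closest to new component 1. The absolute Pearson r was 0.666 for component 1 and 0.686 for component 2, so these cells did not recover them as separate axes. Component 3 was closest to new component 3, at 0.984. Without cells over 50% mitochondrial, component 1 was closest to new component 2, at 0.826, and component 2 to new component 1, at 0.999. Component 3 was again closest to new component 3, at 0.898.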

How the data were processed

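Single mouse cells were profiled from polyA RNA. The reads were processed with HISAT 0.1.6 and Salmon 0.3.2 on GRCm38, per the submitters' processing notes. The table the authors deposited holds expression on a natural log scale, read from its values as ln(TPM + 1), and it was turned back into TPM and then log2(TPM + 1) with a pseudocount of 1. The TPM values the authors made keep no read depth, so the depth per cell is unknown and intervals over cells cover counting error only.

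A gene was detected at TPM of at least 1, and cells with at least 1000 genes were kept. Pairs of cells of 1 group with Pearson r above 0.9 were averaged, which changed the Eng_ES-HSC and ESC groups. Spread and rank correlation used genes detected in at least 20% of cells, and ranks were regressed on the rank of the gene number. These steps were tested on simulated data. Doublets were not called and cells were not clustered. The ERCC spike-in rows were too sparse for a technical background of the spread, and that planned step was left out. Named genes are the 5 markers, members of 28 gene lists, and those with the highest mean, the largest or smallest spread, the extreme pair correlations, the closest marker partners and the largest leads over other groups. Genes of predicted, mitochondrial, small RNA or ribosomal protein kinds were not named, and others named outside this rule were chosen after their values were seen. The members and lists were chosen with earlier results of these data known. Python 3.11.15, numpy 2.4.6, pandas 2.3.3, scipy 1.17.1 and matplotlib 3.10.9 were used. Detection thresholds, pseudocounts, cell and gene filters and the kind of correlation were varied. Leaving out cells over 50% mitochondrial, leaving out cells with 1 gene over 10% of TPM, and the principal components were added after seeing the data. Some genes of the lists are not reported here.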

Additional observations from a re-analysis of the deposited data

Results flagged for a closer look

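Spike-in RNA rows (ERCC), which no comparison used, had signal in Eng_BM-HSC: 67.4% of the 95 cells had at least 1 such row at TPM of 1 or more (64 cells).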

How the results depend on the processing

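Of 171 values under alternative settings, 33 moved and 138 did not. A count moved when it changed by over 1.5 times, a median when it changed by over 1 SD (over cells or over the list's pairs), and a share when it left its exact 95% interval. Within-list median correlations near 0 changed sign without moving, with -0.0092 for HSC surface genes among cells of at least 2000 genes and 0.084 for MHC class II genes without adjustment. A detection threshold of 10 TPM in place of 1 gave a median of 1509 genes per cell and 520 genes in at least 50% of cells. It gave 6 HSC transcription factors, 6 HSC surface genes, 3 quiescence genes, 4 immediate early genes, 0 MHC class II genes and 3 interferon genes in at least 50% of cells. At that threshold the markers were detected in 50% of cells for Hlf, 81.6% for Adgrg1, 67.1% for Ctla2b, 31.6% for H2-Aa and 55.3% for Egr1. A threshold of any TPM above 0 gave 8 interferon, 1 S phase and 2 G2 and M phase genes. With all 95 cells, 0 MHC class II genes were in 50% of cells and 151 genes had an excess SD of at least 0.5. With the 58 cells of at least 2000 genes, 2 G2 and M phase genes were in 50% of cells, Adgrg1 was in 100% and Ctla2b in 94.8%, and 427 genes had the excess SD. Pseudocounts of 0.1 and 10 gave 681 and 28 genes of excess SD (12 and 6 of the 12 genes of largest excess) and 96 and 20 genes highest in Eng_BM-HSC. Pairs at 0.5 or above numbered 8802 without adjustment for gene number and 2429 with Pearson's correlation, which also gave a median of 0.34 for G2 and M phase pairs. The genes highest in Eng_BM-HSC numbered 515 among cells of 1000 to 3000 genes. They numbered 83 without cells over 50% mitochondrial and 75 without cells with 1 gene over 10% of TPM, and that last setting gave 1 G2 and M phase gene. The causes were not tested. No paired analysis was possible because the numbers that groups share only count cells. Fewer cells and an unknown read depth limit what a value of 0 shows.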

Other observations

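Genes of energy metabolism were split in Eng_BM-HSC. Of 18 nuclear genes of oxidative phosphorylation 13 were in at least 50% of cells, among them Cox4i1, a subunit of cytochrome c oxidase, with a median of 232 TPM. Of 15 glycolysis genes 4 were, with a median of 50.2 TPM for Aldoa, the aldolase, and 24.9 TPM for Ldha, which makes lactate. Hk2, the inducible hexokinase, was in 27.6% of cells. Of 13 housekeeping genes 8 were in at least 50%. The share was 5.87% over all gene rows and 13.4% over genes with a mean of at least 1 TPM.

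Of 18 early lymphoid genes 2 were in at least 50% of cells, Flt3 and Bcl11a (59.2%), and the list median was 13.2% of cells. That count lies between the shares of all gene rows (5.87%) and of genes with a mean of at least 1 TPM (13.4%). Dntt, the terminal transferase of lymphoid progenitors, was in 21.1% of cells and reached 3058 TPM, and Il7r was in 4 cells with at most 2.24 TPM. Of 23 Notch pathway genes 2 were in at least 50%, also between those shares, the receptor Notch2 in 82.9% and the protease Adam10 in 73.7%. Notch1 and the target Hes1 were in 9.21% each. Of 8 genes of fetal HSC 1 was, Igf2bp2 in 57.9%, again between those shares, and Lin28b was in 1 cell.

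Among other lists, 1 of 18 monocyte and macrophage genes was in at least 50% of cells (Lyz2), close to the 5.87% of all gene rows. None of 8 dendritic cell and none of 12 endothelial and stromal genes was. Of 4 Y-linked genes 1 was, Kdm5d in 71.1% with a median of 4.42 TPM, while Ddx3y, Eif2s3y and Uty were in no Eng_BM-HSC cell. Kdm5d was also in 83.1% of ESC cells. All 4 Ctla2 and Tmem176 genes were in at least 50% of Eng_BM-HSC cells, with Tmem176b in 94.7%.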
